A study of Mus musculus with 9 samples.

Results

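Myostatin, the activins, the growth differentiation factors GDF11 and GDF15, the follistatins and the activin type II receptors were followed as 10 genes of 54532 in RNA from injured mouse muscle. The genes were taken from the deposited table by name: Mstn, Gdf11, Gdf15, Inhba, Inhbb, Fst, Fstl1, Fstl3, Acvr2a and Acvr2b, and all 10 were found. RNA came from the tibialis anterior, a muscle at the front of the lower hind limb, after an injury. There were 3 libraries from old P311-/- mice, 3 from old wild-type mice of 24 months and 3 from young wild types aged 4 to 6 months. Injury was shared by all 3 groups, and no uninjured muscle was analysed here. The sources used here give neither the strain, the injury used and the interval after it, nor how the P311 allele was made or how many months old its carriers were. Replicates 1 to 3 of a group are not said to be different animals, so p-values measure only the spread between libraries, which may be technical.

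Myostatin is a secreted ligand of the TGF-beta superfamily that muscle fibres make and that limits muscle mass. It is made as a proform, cut by furin-type proteases and set free from its propeptide by BMP1 and tolloid proteases. It binds the receptors ACVR2B and ACVR2A, which act with a type I receptor to activate SMAD2 and SMAD3. Activins, dimers of inhibin beta chains, use the same type II receptors, and follistatin and FSTL3 bind and block activins and myostatin.

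The members lie apart in the genome. Their positions on GRCm38 are as deposited; Mstn, Inhba, Fstl1, Fstl3, Acvr2a and Acvr2b lie on the plus strand and the others on the minus strand. Mstn (ENSMUSG00000026100) lies on chromosome 1 from 53061640 to 53068079 and Inhbb (ENSMUSG00000037035), the inhibin beta-B chain, on the same chromosome from 119415465 to 119422248. Gdf11 (ENSMUSG00000025352) spans 128882295 to 128891718 on chromosome 10 and Fstl3 (ENSMUSG00000020325) 79777272 to 79782630 on the same chromosome. Inhba (ENSMUSG00000041324), the inhibin beta-A chain, spans 16011851 to 16031621 on chromosome 13 and Fst (ENSMUSG00000021765) 114452290 to 114458951 on the same chromosome. Fstl1 (ENSMUSG00000022816) spans 37776873 to 37836514 on chromosome 16, and Gdf15 (ENSMUSG00000038508) 70629393 to 70632456 on chromosome 8. Acvr2a (ENSMUSG00000052155) spans 48814109 to 48903269 on chromosome 2 and Acvr2b (ENSMUSG00000061393) 119402118 to 119434995 on chromosome 9.

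The promoter of Mstn is shown as the 250 bases before its RefSeq start on GRCm38.p6, chr1:53061390-53061639 on the plus strand, with E-boxes (CANNTG, read on both strands) and the TATA box (TATAAA, both strands) in capitals.
Mstn: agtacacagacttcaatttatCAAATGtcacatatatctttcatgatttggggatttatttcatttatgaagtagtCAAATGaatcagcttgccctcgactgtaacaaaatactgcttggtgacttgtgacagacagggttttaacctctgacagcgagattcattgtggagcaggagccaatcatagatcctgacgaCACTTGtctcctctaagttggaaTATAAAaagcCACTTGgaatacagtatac
The Mstn window held 4 E-boxes, the hexamer that MyoD-family factors and other basic helix-loop-helix proteins bind, and 1 TATA box 29 bases before the start. Of 32851 RefSeq promoters of this length, 66.2% held an E-box, at a mean of 1.16 per promoter, and 12.4% a TATA box. Of the 9 members with an entry in that table, the others with an E-box were Fstl3 with 3, Gdf11 with 1 and the inner of the 2 Gdf15 starts with 3. The window of Fstl1, the member with the next largest difference between old and young wild-type muscle among those of at least 5 FPKM, held neither motif. The Mstn window was 38.4% and the Fstl1 window 68.0% G and C. A match is a description of letters and not a bound site.

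Reads recovered from the deposited values numbered 20475248 to 31910890 in the old P311-/- libraries, 17730208 to 23133027 in the old wild-type libraries and 14222204 to 18249081 in the young wild-type libraries. Nrep, the gene of P311, stood at 10.3 ± 4.26 FPKM (SD, n = 3) in old P311-/-, 75.6 ± 6.51 FPKM in old wild-type and 74.3 ± 11.3 FPKM in young wild-type muscle, where FPKM is reads scaled by gene length and library size. It fell by 2.94 on the log2 scale in old P311-/- against old wild type (limma adjusted p = 0.00523). The fibre genes Ckm and Acta1 averaged 2460 FPKM or more in every group, and none of the 8 fibre markers was at 0 throughout. Old P311-/- replicate 1 stood apart from its group. Over the tested genes its Euclidean distance was 107.8 and 108 to the other P311-/- libraries and 84.55 to 96.16 to the old wild-type libraries. To the young libraries it was 89.3 to 99.34, so replicate 1 lay nearer to both wild-type groups than to its own. Replicates 2 and 3 were 96.61 from each other and 99.44 to 121.2 from the wild-type libraries. Which of these libraries is typical of P311-/- muscle cannot be told. Its new-fibre markers summed to 132 FPKM and its macrophage markers to 1160 FPKM, the highest of the 3 P311-/- libraries in both, and its fibre markers to 30600 FPKM, the lowest of the 3.

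Compared per unit of gene length, in FPKM, the members differed widely in level. Fstl1 was the highest in all 3 groups, with means of 69.6, 76.2 and 132 FPKM in old P311-/-, old wild-type and young wild-type muscle. In old muscle of both genotypes Mstn, Acvr2a, Fst and Gdf11 followed in that order, and the values of Fstl1, Mstn, Acvr2a, Fst and Gdf11 did not overlap between neighbours within a group. In young muscle Acvr2a, at 6.05 FPKM, and Mstn, at 6.0 FPKM, overlapped, as did Fst, Gdf11 and Acvr2b between neighbours. Gdf15, Inhbb, Fstl3 and Inhba averaged 1.0 FPKM or less in every group, and Inhba was the lowest in each. Testing needed 0.5 FPKM or more in 3 or more libraries, which 15019 genes and 8 of the 10 members reached. Inhba and Fstl3 fell short of it.

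**Figure D1:**
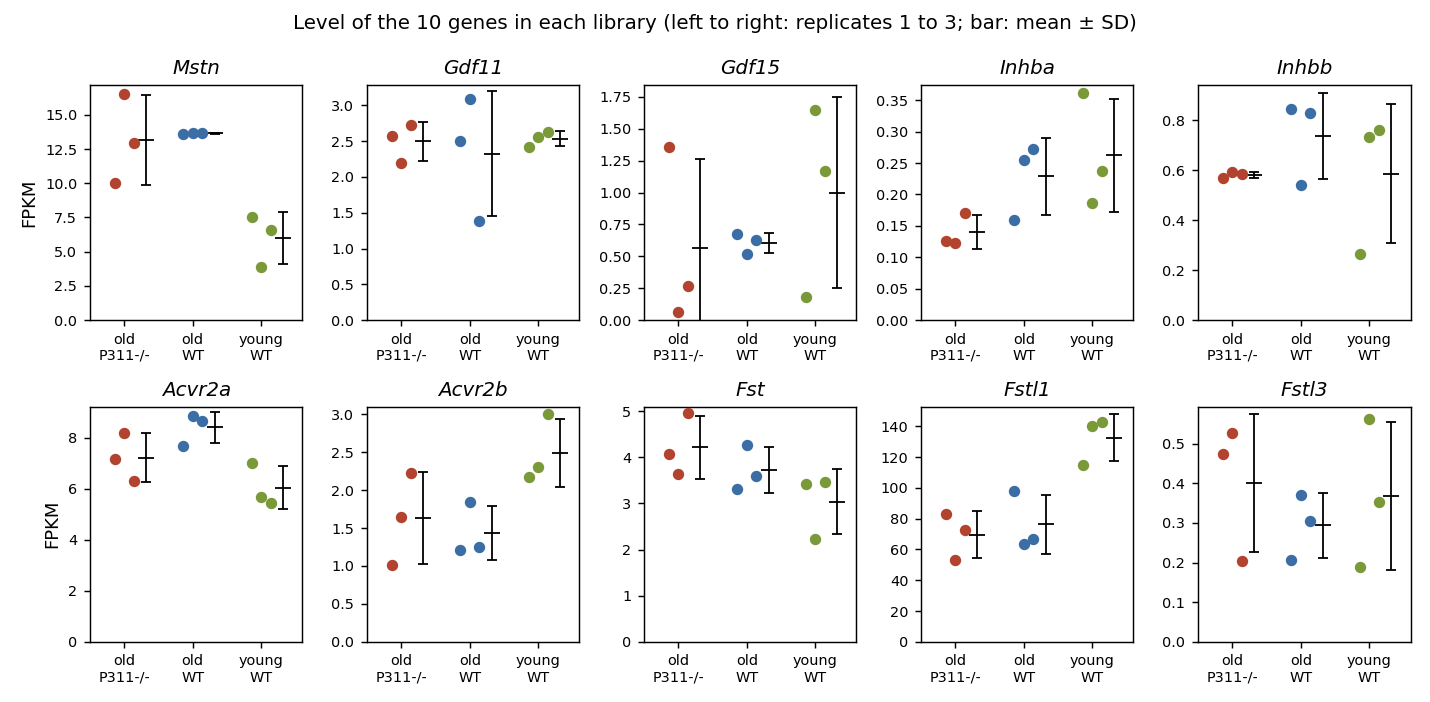
FPKM of the 10 genes in each of the 9 libraries, by group, with dots for replicates 1 to 3 and the mean ± SD beside them. Mstn stands at 10.01 to 16.6 FPKM in old P311-/- and 13.6 to 13.7 FPKM in old wild-type muscle, above the 3.89 to 7.57 FPKM of young wild-type muscle, and Fstl1 is lower in each old library than in any young one.

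Among the ligands, Mstn had higher values in every old library than in any young one, and the difference passed the test between the wild-type groups. It stood at 10.01, 16.6 and 12.9 FPKM in old P311-/- replicates 1 to 3, at 13.6, 13.7 and 13.7 FPKM in old wild-type muscle and at 7.57, 3.89 and 6.55 FPKM in young wild-type muscle. The old groups overlapped, and their lowest library, P311-/- replicate 1, was above the highest young one. The group means were 13.2 ± 3.28, 13.7 ± 0.0324 and 6.00 ± 1.90 FPKM (SD, n = 3) in old P311-/-, old wild-type and young wild-type muscle, so the old wild-type mean was 2.27 times the young one. Between 176 and 1057 reads of the gene stood behind each value. In old wild-type muscle there were 613 to 893, and an SD of 0.0324 FPKM is below what counting error alone would give. That SD is therefore no measure of the spread in this group.

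Mstn rose in old against young wild-type muscle by 1.23 on the log2 scale (SE 0.25, limma adjusted p = 0.0374). It was the 1 member called higher of the 8 tested, and none was called lower, where 4.05% of the 15019 genes passed and 2.54% of them all were called higher. Of all genes 382 were called higher and 226 lower, against 61 higher and 174 lower under total-count scaling, where Mstn stood at 1.09 (limma adjusted p = 0.0486). A call here is a Benjamini-Hochberg adjusted p under 0.05 over all tested genes, and each fold change is a difference of log2(FPKM + 0.1). In old P311-/- against young wild-type muscle the log2 fold change was 1.14 (SE 0.25, adjusted p = 0.0823), and 0 members were called by limma (3 at an unadjusted p under 0.05, as had 20.4% of genes), where 0.300% of genes passed. In old P311-/- against old wild-type muscle it was -0.08, with a 95% confidence interval of -0.64 to 0.48 (limma adjusted p = 0.894), and 0.10 without P311-/- replicate 1. These comparisons share libraries and are not independent of each other.

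The Mstn call was close to the threshold. It passed in 9 of the 20 other settings tried, and not without young replicate 1, 2 or 3 (adjusted p = 0.0640, 0.111 and 0.120), old wild-type replicate 1, 2 or 3 (0.0626, 0.131 and 0.115) or P311-/- replicate 3 (0.0536), although the log2 fold change stayed between 0.946 and 1.416 with a library left out. Base composition moved with this comparison. Mstn transcripts are 37.8% G and C, lower than all but 1.36% of tested genes, and the 435 tested genes within 2 percentage points of that had a median log2 fold change of 0.43 in old against young wild type, -0.31 in old P311-/- against old wild type and 0.11 in old P311-/- against young wild type. With trends over GC content and length taken out, which was chosen after seeing the data, Mstn stood at 0.72 (SE 0.26, adjusted p = 0.191) in old against young wild type and at 1.09 (adjusted p = 0.0949) in old P311-/- against young wild type.

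Ratios of members and marker genes were chosen after the values were seen and are given with no test. Per 1000 FPKM of Ckm, which encodes muscle creatine kinase, Mstn stood at 3.72 to 4.37 in old P311-/-, 4.31 to 5.28 in old wild-type muscle and 1.56 to 3.05 in young wild-type muscle. The 8 fibre markers summed to 30600 to 43500 FPKM in old P311-/-, 29100 to 36600 FPKM in old wild-type libraries and 29900 to 30700 FPKM in young wild-type libraries. Acta1 was the largest part, at 16500 to 23400 FPKM. Of the 8, the fast myosin gene Myh1 was called lower in old against young wild type, at a log2 fold change of -1.01 (limma adjusted p = 0.0397). Ckm itself and Tnnt3 were higher there without overlap, Myh1 and Ttn were lower without overlap, and the others overlapped. In old P311-/- against old wild type all 8 were above 0, with a median of 0.352, where 49.7% of tested genes were above 0, and none was called. In bulk tissue, fewer cells of a type and less RNA per cell cannot be told apart.

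Gdf11, whose mature protein is close to myostatin, stood at 2.57, 2.2 and 2.73 FPKM in old P311-/-, 2.51, 3.09 and 1.38 FPKM in old wild-type and 2.42, 2.56 and 2.63 FPKM in young wild-type muscle. All 3 groups overlapped, and old wild-type replicate 3 was the lowest library. Its log2 fold change was -0.19 (95% confidence interval -0.76 to 0.38, limma adjusted p = 0.673) in old against young wild type and 0.17 (adjusted p = 0.773) in old P311-/- against old wild type. The ratio of Mstn to Gdf11 was 3.89 to 7.52 in old P311-/-, 4.43 to 9.93 in old wild-type muscle and 1.52 to 3.12 in young wild-type muscle.

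Gdf15, a cytokine of cell stress that acts through the receptor GFRAL in the hindbrain, varied more between libraries than between groups. It stood at 1.36, 0.0604 and 0.268 FPKM in old P311-/-, 0.672, 0.521 and 0.626 FPKM in old wild-type and 0.178, 1.65 and 1.17 FPKM in young wild-type muscle. Old P311-/- replicate 2 had 2 reads, with an exact Poisson interval of 0.00732 to 0.218 FPKM, and replicate 1 had 72 reads, with an interval of 1.07 to 1.72 FPKM, so these libraries differed by more than counting error. Such intervals cover counting error only. No comparison passed, and the 95% confidence interval of the log2 fold change in old P311-/- against old wild type ran from -2.60 to 1.26.

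The activin beta chains were near the lower limit of the data. Inhba stood at 0.126, 0.123 and 0.171 FPKM in old P311-/-, 0.159, 0.255 and 0.272 FPKM in old wild-type and 0.362, 0.187 and 0.238 FPKM in young wild-type muscle, on 14 to 42 reads per library. Each P311-/- library lay below each young one, while the old groups overlapped. An exact permutation test of the log2 values gave p = 0.1 for P311-/- against young wild type, p = 0.2 against old wild type and p = 0.6 for old against young wild type (two-sided), where 0.1 is the smallest p that 3 against 3 libraries allow. Inhba overlaps the pseudogene B230303A05Rik, its larger overlap, and the antisense gene Gm48444, both on the other strand, and whether strand was used in counting is unknown. Overlaps here and below are between whole gene spans, introns included, and the part within exons was not computed. Inhbb stood at 0.569, 0.592 and 0.583 FPKM in old P311-/-, 0.845, 0.539 and 0.827 FPKM in old wild-type and 0.264, 0.731 and 0.761 FPKM in young wild-type muscle. Its groups overlapped in every comparison, and limma adjusted p-values were 0.586 or above.

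The type II receptors pointed in opposite directions with age, and neither passed in the limma fit of log2 values. Acvr2a stood at 7.18, 8.20 and 6.29 FPKM in old P311-/-, 7.70, 8.86 and 8.67 FPKM in old wild-type and 7.03, 5.69 and 5.43 FPKM in young wild-type muscle. Each old wild-type library lay above each young one, and old P311-/- overlapped both. The limma fit gave it a log2 fold change of 0.48 (SE 0.14, adjusted p = 0.0832) in old against young wild type and -0.22 (adjusted p = 0.465) in old P311-/- against old wild type. Acvr2a shares 446 bases of its span with Orc4 on the other strand. The log2 fold change of Orc4, a subunit of the origin recognition complex, stood at 0.79 (limma adjusted p = 0.0977) in old against young wild type.

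Acvr2b, the high-affinity myostatin receptor, stood at 1.01, 1.65 and 2.22 FPKM in old P311-/-, 1.21, 1.84 and 1.25 FPKM in old wild-type and 2.17, 2.30 and 3.0 FPKM in young wild-type muscle. Each old wild-type library lay below each young one, while P311-/- replicate 3 reached the young range. The limma fit gave it a log2 fold change of -0.76 (SE 0.28, adjusted p = 0.136) in old against young wild type and 0.13 (adjusted p = 0.847) in old P311-/- against old wild type. The ratio of Acvr2a to Acvr2b was 7.12, 4.97 and 2.84 in old P311-/-, 6.37, 4.81 and 6.91 in old wild-type and 3.24, 2.48 and 1.81 in young wild-type muscle. The old and young wild-type ratios did not overlap, which follows from the separate values of both genes and adds nothing to them. P311-/- replicate 3 fell in the young range while the other P311-/- libraries lay at 4.97 or above. Acvr2b shares 3909 bases of its whole span, introns included, with the antisense gene Gm47320. Acvr2a transcripts are 41.1% and Acvr2b transcripts 59.3% G and C, and tested genes within 2 points of these had median log2 fold changes of 0.29 and -0.20 in old against young wild type, in the directions of the receptors. In old P311-/- against old wild type these medians were -0.25 and 0.20, again in the directions of the receptors. With trends over GC content and length taken out, Acvr2a stood at 0.21 (adjusted p = 0.433) and Acvr2b at -0.52 (adjusted p = 0.341) in old against young wild type. With voom and library quality weights both passed, Acvr2a at 0.50 (adjusted p = 0.0155) and Acvr2b at -0.80 (adjusted p = 0.0360). Under that setting 2923 of 15019 genes were called in this comparison, against 608 in the reported fit.

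**Figure D2:**
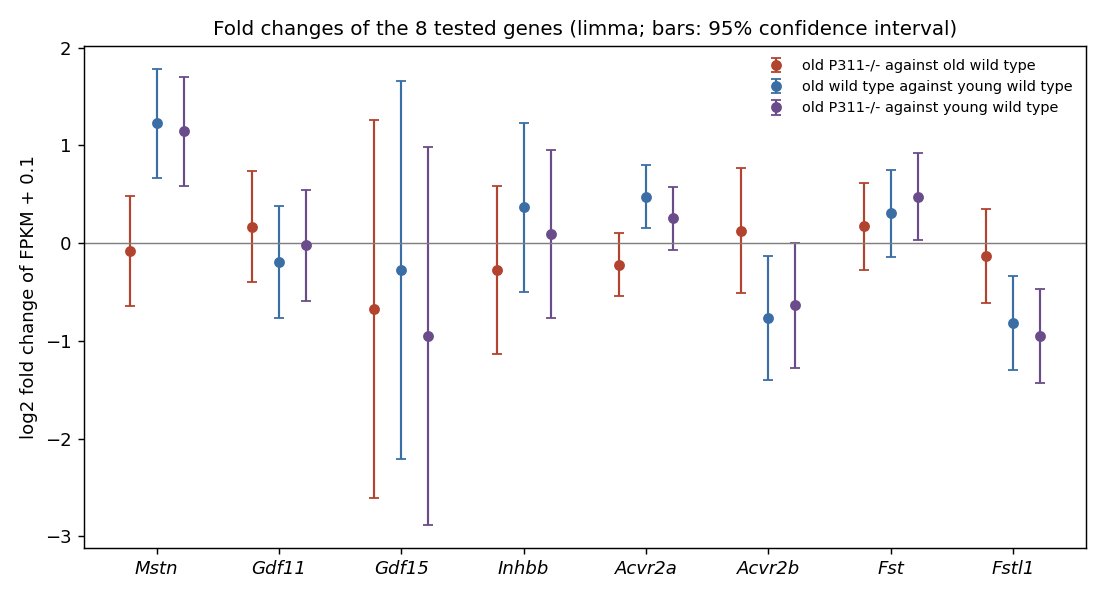
Log2 fold changes of FPKM + 0.1 for the 8 tested genes in the 3 comparisons, with 95% confidence intervals from limma. Mstn is at 1.23 and Fstl1 at -0.82 in old against young wild type, and in old P311-/- against old wild type every interval includes 0.

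Among the inhibitors, Fst stood at 4.06, 3.63 and 4.96 FPKM in old P311-/-, 3.31, 4.27 and 3.59 FPKM in old wild-type and 3.42, 2.23 and 3.46 FPKM in young wild-type muscle. Each P311-/- library was above each young one, and old wild type overlapped both. The limma fit gave it a log2 fold change of 0.48 (SE 0.20, adjusted p = 0.221) in old P311-/- against young wild type, 0.30 (adjusted p = 0.368) in old against young wild type and 0.17 (adjusted p = 0.697) in old P311-/- against old wild type. The ratio of Mstn to Fst was 2.47, 4.56 and 2.61 in old P311-/-, 4.11, 3.20 and 3.81 in old wild-type and 2.21, 1.75 and 1.89 in young wild-type muscle, and each old library exceeded each young one. Fst shares 289 bases of its span with the antisense gene Gm47040, and Fstl3 shares 1157 bases of its span with Prss57 on the other strand. Fstl3 stood at 0.203 to 0.526 FPKM in old P311-/-, 0.207 to 0.370 FPKM in old wild-type muscle and 0.189 to 0.563 FPKM in young wild-type muscle, on 7 to 33 reads per library, and its groups overlapped throughout (exact permutation p = 0.6, 0.7 and 0.9 for P311-/- against old wild type, old against young wild type, and P311-/- against young wild type).

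Fstl1, a secreted glycoprotein of mesenchymal cells that is a more distant relative of follistatin, had lower values in every old library than in any young one and did not pass the test. It stood at 83.2, 52.9 and 72.6 FPKM in old P311-/-, 98.1, 63.6 and 67.1 FPKM in old wild-type and 115, 140 and 143 FPKM in young wild-type muscle, on 4649 to 13856 reads per library. The highest old library was old wild-type replicate 1, and the old groups overlapped. The limma fit gave it a log2 fold change of -0.82 (SE 0.21, adjusted p = 0.0602) in old against young wild type and -0.95 (SE 0.21, adjusted p = 0.0862) in old P311-/- against young wild type, so neither passed, and it was -0.13 (adjusted p = 0.794) in old P311-/- against old wild type. The difference between the wild-type groups passed in 6 of 20 other settings, among them the fit of the 6 wild-type libraries (adjusted p = 0.0382), voom (0.0373) and the fits without P311-/- replicate 1 (0.0349) or 2 (0.0465) or old wild-type replicate 1 (0.0446). Genes called in those fits numbered 1435, 950, 1623, 781 and 442 in the same order, against 608 in the reported fit. Without P311-/- replicate 1 the difference of old P311-/- from young wild type was -1.09 and passed (adjusted p = 0.0132), as Mstn did at 1.33 (adjusted p = 0.0114). There 2620 genes were called, against 45 in the reported fit.

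The 6 markers of fibro-adipogenic progenitors and the 6 of macrophages, like Fstl1, had log2 fold changes below 0 in both old groups against young wild type. Of these markers 1 was called in old against young wild type. Other lists were mixed. Of 4 tenocyte markers 1, Scx, was above 0 in both comparisons (0.45 in old wild type and 0.41 in P311-/-). Of 4 adipocyte markers 2 were above 0 in old wild type and 4 in P311-/- against young wild type. The 6 markers of fibro-adipogenic progenitors, the mesenchymal cells between fibres, summed to 359 to 560 FPKM in old P311-/-, 405 to 625 FPKM in old wild-type muscle and 750 to 823 FPKM in young wild-type muscle, and none was at 0 throughout. All 6 had a log2 fold change below 0 in old against young wild type, with a median of -0.42, where 49.8% of tested genes were below 0. Of them the type I collagen gene Col1a1 was called lower (log2 fold change -1.04, limma adjusted p = 0.0485), and the other 5 were not called. Col1a1 was also the largest part of the sum in every library. It stood at 129 to 265 FPKM in old P311-/-, 168 to 217 FPKM in old wild-type and 382 to 457 FPKM in young wild-type muscle. The 6 macrophage markers summed to 491 to 1160 FPKM in old P311-/-, 935 to 1290 FPKM in old wild-type muscle and 1050 to 1720 FPKM in young wild-type muscle. Lyz2 was most of these sums, at 427 to 1040, 843 to 1160 and 928 to 1540 FPKM in the same order. All 6 macrophage markers were below 0 as well, and none was called. Their median was -0.42 in old against young wild type and -0.78 in old P311-/- against young wild type. That of the progenitor markers was -0.64 in old P311-/- against young wild type. The ratio of Fstl1 to the progenitor marker Pdgfra was 8.0 to 9.73 in old P311-/-, 8.15 to 10.5 in old wild-type muscle and 10.8 to 14.8 in young wild-type muscle, and its ratio to Col1a1 was 0.313 to 0.442 in old P311-/-, 0.319 to 0.451 in old wild-type libraries and 0.300 to 0.374 in young wild-type libraries. The part of either cell type in the Fstl1 values was not tested.

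**Figure D3:**
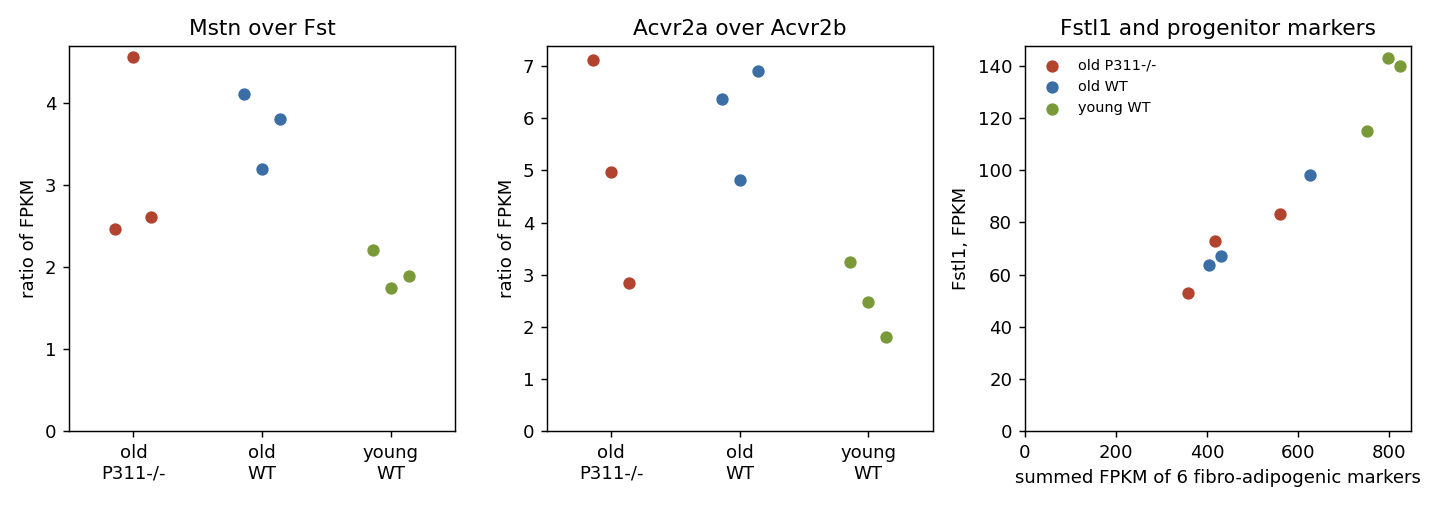
Left and middle, ratios of FPKM by library for Mstn over Fst and Acvr2a over Acvr2b, both of which are higher in each old wild-type library than in any young one. For Acvr2a over Acvr2b this follows from the separate values of both genes. Right, Fstl1 FPKM against the summed FPKM of 6 fibro-adipogenic progenitor markers, where the young wild-type libraries are highest in both. Col1a1 is the largest part of each sum.

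Over the 8 tested members, the groups overlapped for all 8 in old P311-/- against old wild type, where they did not for 17.5% of tested genes. In that comparison 0 members were called by limma (0 at an unadjusted p under 0.05, where 15.5% of genes had one), against 0.0666% of genes called. In old against young wild type the groups did not overlap for 4 members, 2 higher (Mstn and Acvr2a) and 2 lower (Fstl1 and Acvr2b), where they did not for 35.8% of genes, 18.2% higher and 17.6% lower. The same 4 had an unadjusted p under 0.05, as had 25.3% of genes. In old P311-/- against young wild type they did not overlap for 3, Mstn and Fst higher and Fstl1 lower, where they did not for 22.9% of genes, 11.1% higher and 11.7% lower. The median log2 fold change of the members was -0.11, 0.06 and 0.03 in old P311-/- against old wild type, old against young wild type, and P311-/- against young wild type, beside -0.00279, 0.00207 and 0.0113 over all tested genes. Without P311-/- replicate 1, which stood apart, the members called were 0 in old P311-/- against old wild type and Mstn and Fstl1 in each of the other comparisons, where 1729, 1623 and 2620 genes were called.

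**Figure D4:**
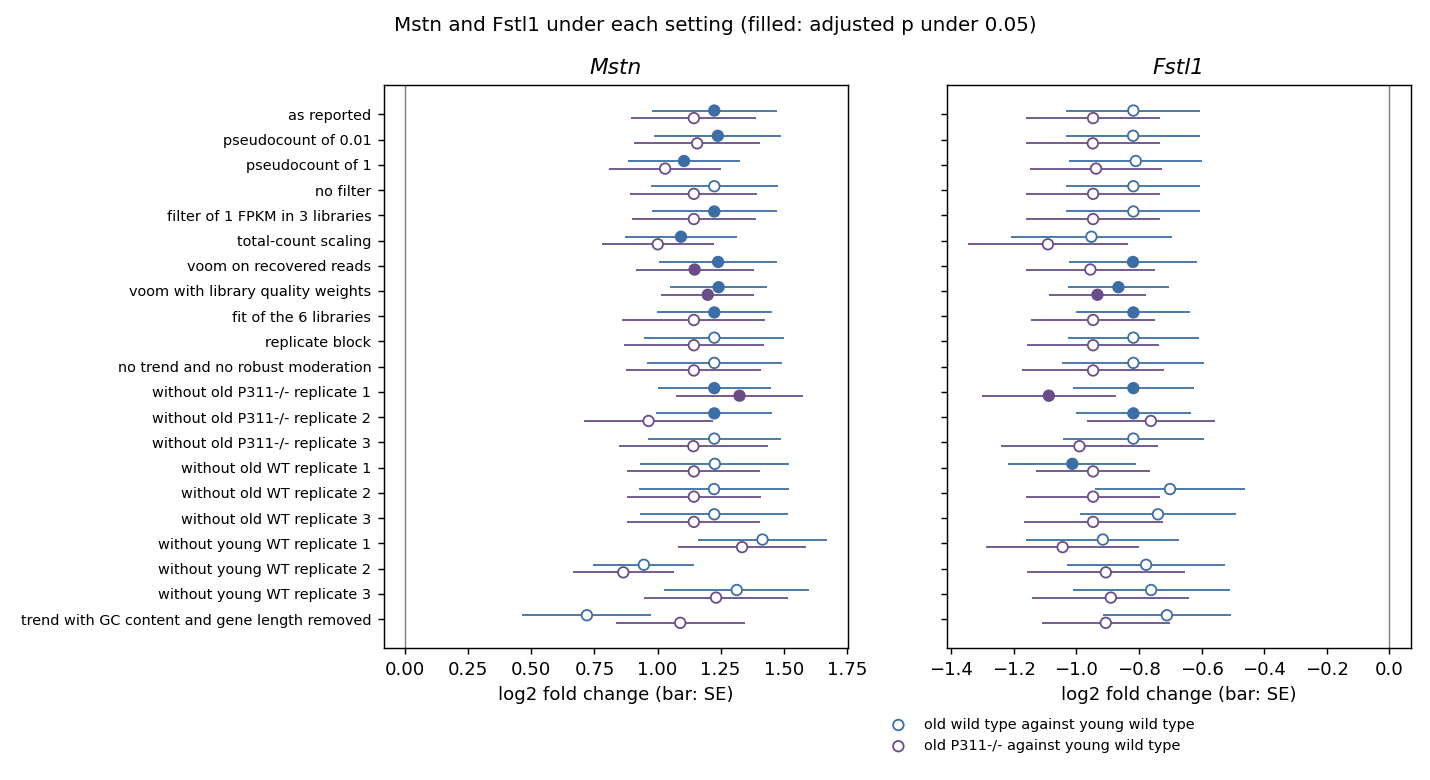
Log2 fold change and SE of Mstn and Fstl1 under each setting, with each old group set against young wild type. Filled points have an adjusted p under 0.05, and Mstn stays above 0 and Fstl1 below 0 throughout, with the old against young wild-type value of Mstn at 0.72 once trends over GC content and length are taken out.

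The rest of the pathway was read from lists of 74 genes, of which 52 were tested. In old against young wild type limma called 2 of these higher and 3 lower, where 4.05% of all tested genes were called, and in the other comparisons 0. These calls were close to the threshold, at adjusted p of 0.0343 to 0.0470, and were not followed gene by gene under other settings. Over all genes that comparison had 0 calls with the replicate block, 5 without a filter and 27 without trend and robust moderation. At an unadjusted p under 0.05 there were 6 of the 52 in old P311-/- against old wild type, 12 in old against young wild type and 10 in old P311-/- against young wild type, where 15.5%, 25.3% and 20.4% of all tested genes had one, so the counts were below those shares. Of 10 tested receptors and co-receptors, Bmpr1b and Bmpr1a, type I receptors of bone morphogenetic proteins, rose in old against young wild type by 1.06 (adjusted p = 0.0358) and 0.47 (adjusted p = 0.0470) on the log2 scale. Bmpr1b averaged 1.58, 1.94 and 0.885 FPKM and Bmpr1a 18.8, 20.1 and 14.4 FPKM in old P311-/-, old wild-type and young wild-type muscle. Acvr1b, the type I receptor of activin and myostatin, averaged 18.3, 11.4 and 9.04 FPKM in the same order. It stood at 12.09, 19.63 and 23.3 FPKM in P311-/- replicates 1 to 3, with replicate 1 close to the highest wild-type library, at 11.87 FPKM. Its groups did not overlap in old P311-/- against either wild type, as for 17.5% of tested genes against old and 22.9% against young. The log2 fold changes were 0.64 against old (limma adjusted p = 0.281) and 0.97 against young (adjusted p = 0.0874), and neither passed. Acvr1, a type I receptor of bone morphogenetic proteins, had 0.22 (adjusted p = 0.364) in old P311-/- against old wild type.

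Among 9 tested extracellular binders, Vasn, which encodes the TGF-beta binder vasorin, fell by 0.71 on the log2 scale in old against young wild type (limma adjusted p = 0.0343) and had -0.67 in old P311-/- against young wild type (adjusted p = 0.0653). Wfikkn2, which encodes the myostatin and GDF11 binder GASP-1, averaged 4.12, 1.79 and 1.12 FPKM in old P311-/-, old wild-type and young wild-type muscle. Its log2 fold change was 1.65 in old P311-/- against young wild type and did not pass (adjusted p = 0.128). The groups did not overlap, as for 22.9% of tested genes. P311-/- replicates 1 to 3 stood at 1.57, 5.15 and 5.65 FPKM, so replicate 1 was barely above the highest young library, at 1.53 FPKM. Ltbp3, a latent TGF-beta binding protein gene, had 0.52 (adjusted p = 0.258) in old P311-/- against old wild type and -0.32 (adjusted p = 0.180) in old against young wild type.

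All 4 tested proteases of the proforms had a log2 fold change below 0 in old against young wild type, with a median of -0.82, and all 4 were above 0 in old P311-/- against old wild type, with a median of 0.37, where 49.8% and 49.7% of tested genes were on that side. These comparisons share the old wild-type libraries. Bmp1, which frees myostatin from its propeptide, fell by 0.76 in old against young wild type (limma adjusted p = 0.0375) and averaged 9.23, 8.57 and 14.5 FPKM in old P311-/-, old wild-type and young wild-type muscle. It had -0.65 (adjusted p = 0.0960) in old P311-/- against young wild type. The proprotein convertase genes were not called. Pcsk5 had -0.88 (adjusted p = 0.0834) in old against young wild type and 0.52 (adjusted p = 0.375) in old P311-/- against old wild type, Furin had 0.34 (adjusted p = 0.340) in old P311-/- against old wild type, and Pcsk6 had -0.64 (adjusted p = 0.326) in old P311-/- against young wild type.

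Of 12 tested SMADs and regulators, Ski, a repressor of SMAD signalling, fell by 0.47 in old against young wild type (limma adjusted p = 0.0446), and averaged 13.4, 11.4 and 15.8 FPKM in old P311-/-, old wild-type and young wild-type muscle. Its value in old P311-/- against young wild type was -0.24 (adjusted p = 0.248). The ubiquitin ligase gene Smurf1 had -0.41 (adjusted p = 0.115) in old against young wild type and 0.37 (adjusted p = 0.288) in old P311-/- against old wild type. Of the inhibitory SMAD genes, Smad7 had 0.52 (adjusted p = 0.324) in old P311-/- against old wild type and Smad6 had 0.37 (adjusted p = 0.355) in old P311-/- against young wild type. Of 13 other ligand genes 4 were tested and none was called. Inha, the inhibin alpha chain, averaged 6.60, 5.92 and 6.67 FPKM in old P311-/-, old wild-type and young wild-type muscle, above either beta chain, and had 0.14 (adjusted p = 0.636) and -0.17 (adjusted p = 0.484) in P311-/- against old and in old against young wild type. Lefty1, a Nodal antagonist, had -0.33 (adjusted p = 0.660) in old against young and -0.25 (adjusted p = 0.769) in old P311-/- against young wild type, Gdf3 -0.14 (adjusted p = 0.895) in old P311-/- against old, and Gdf10 0.21 (adjusted p = 0.718) in old P311-/- against young wild type.

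Genes of the integrated stress response, which induces Gdf15 in many cells, were not called in any comparison (1, 1 and 2 of 13 at an unadjusted p under 0.05 in old P311-/- against old wild type, old against young wild type, and P311-/- against young wild type, where 15.5%, 25.3% and 20.4% of all tested genes had one). Asns, asparagine synthetase, averaged 0.959, 1.58 and 2.26 FPKM in old P311-/-, old wild-type and young wild-type muscle and had -1.21 (limma adjusted p = 0.110) in old P311-/- against young wild type and -0.66 (adjusted p = 0.335) against old. Sesn2, which encodes a stress-induced sestrin, had 0.64 (adjusted p = 0.315) in old P311-/- against old wild type and -0.63 (adjusted p = 0.188) in old against young wild type. Psat1, an enzyme of serine synthesis, had -0.46 (adjusted p = 0.215) in old and -0.53 (adjusted p = 0.211) in old P311-/- against young wild type.

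Each tested member was compared with 10683 tested genes averaging at least 1 FPKM, without members or symbols of the Gm-number, Rik, clone or pseudogene kind. The genes closest in pattern had the smallest root-mean-square (RMS) difference of centred log2 values over the 9 libraries. For Fstl1 these were Unc93b1, a chaperone of Toll-like receptors, at an RMS difference of 0.0792, and Fbn1, which encodes the microfibril protein fibrillin-1, at 0.0893, where Fstl1 itself varied by an RMS of 0.482. Fbn1 averaged 21.7, 22.4 and 42.3 FPKM in old P311-/-, old wild-type and young wild-type muscle. Mstn had D3Ertd751e at 0.188 and C1qtnf4 at 0.192, against its own 0.629. Acvr2a had Fahd1 at 0.0558 and Mnat1 at 0.0611, against its own 0.238. Acvr2b had Hsph1 and Ada at 0.219 and 0.221, against 0.459. Fst had Miga1 and Zfp868 at 0.103 and 0.129, against 0.290, and Gdf11 had Rdh10 and Samd1 at 0.146 and 0.157, against 0.295. Inhbb had Mybph, a myosin-binding protein gene, and R3hcc1l at 0.199 and 0.240, against 0.396. Gdf15 had Naip2, an inflammasome sensor, and Socs1, an inhibitor of cytokine signalling, at 0.581 and 0.592, against 1.09, so no gene followed its spread closely. These likenesses are given as a description.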

How the data were processed

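Polyadenylated RNA of 9 muscle libraries was sequenced, per the labels. The deposited values are FPKM for 54532 genes, scaled to gene length and to a library size set by the authors. HISAT2 2.2.1, featureCounts 2.1.1, DESeq2 1.42.0 and the build mm39 are named in the submitters' processing notes, without their options. The gene coordinates are those of GRCm38: 53499 of 54409 shared identifiers (98.3%) had the same position in GENCODE M21. FPKM times gene length times a library constant came out as whole reads within 0.001 for 100% of values. Deposited gene lengths, in bases, carry no normalization by the authors.

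Tests used limma 3.58.1 (R 4.3.3) on log2 of FPKM plus 0.1, with a mean-variance trend and robust moderation, all 9 libraries in 1 fit without a block, adjusted by Benjamini-Hochberg over 15019 genes. The fit was also run on simulated data with independent noise in each gene and no shift shared by a whole library. That run does not bear on how calls change when a library is left out. The members and lists were chosen with earlier results of these data known. All 10 members are named, with called genes of the pathway lists, the 2 of smallest p in each list and comparison, and the 2 nearest profiles of each tested member. One gene that this rule takes from the lists, and 1 sequence, are not reported here. Alternatives were the pseudocount, filter, scaling, voom, samples in the fit, replicate block, moderation, each library left out and removal of GC and length trends.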

Additional observations from a re-analysis of the deposited data

How the results depend on the processing

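Of 483 member values under other settings, 438 kept their direction and their side of the threshold, 15 passed where the reported value did not, 11 lost the call (all Mstn in old against young wild type) and 19 changed sign, none of them past the threshold. The 438 include Inhba and Fstl3, which had 1 other setting, the fit without a filter. Their direction could not change there, and a limma adjusted p was set against an exact permutation p, so these values say nothing on stability. The sign changes outside left-out libraries were Inhbb in old P311-/- against young wild type under total-count scaling (-0.029), Gdf11 in that comparison with voom and quality weights (0.056) and with the GC and length trend removed, a setting chosen after seeing the data (0.0042), and, with that trend removed, Mstn (0.37), Acvr2a (0.012) and Acvr2b (-0.073) in old P311-/- against old wild type. With 1 library left out, old P311-/- against old wild type ran from -0.26 to 0.0999 for Mstn, -0.15 to 0.40 for Gdf11, -1.53 to 0.061 for Gdf15, -0.27 to 0.067 for Fstl1 and -0.12 to 0.42 for Acvr2b. Old against young wild type ran from -0.43 to 0.13 for Gdf11, -1.09 to 0.24 for Gdf15 and -0.038 to 0.58 for Inhbb, and old P311-/- against young wild type from -0.088 to 0.061 for Gdf11 and -0.31 to 0.31 for Inhbb. The causes were not tested.

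In old against young wild type 608 genes and 1 member were called. The counts were 5 and 0 without a filter, 235 genes (61 higher and 174 lower) under total-count scaling, 950 and 2 with voom, 2923 and 4 with voom and quality weights, 1435 and 2 in the fit of the 6 libraries, 27 and 0 without trend and robust moderation, and 17 and 0 with the GC and length trend removed. In old P311-/- against young wild type 45 genes and 0 members were called, with 23 genes without a filter, 137 and 1 with voom, 4431 and 3 with voom and quality weights and 3 genes in the fit of the 6 libraries. In old P311-/- against old wild type 10 genes and 0 members were called, with 4156 and 1 with voom and quality weights, where P311-/- replicates 1, 2 and 3 had weights of 0.218, 0.681 and 2.83. With 1 library left out, genes called ran from 4 to 1729, 0 to 1623 and 5 to 2620 in P311-/- against old, old against young and P311-/- against young wild type, and members called from 0 to 0, 0 to 2 and 0 to 2. The highest counts came without P311-/- replicate 1. In old against young wild type 0 to 2 genes were called without old wild-type replicate 2 or 3 or any young replicate.

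Same-numbered libraries correlated at -0.0598 to 0.0836 in their deviations from group means. That is little sign of pairing by number, but with 3 libraries a group it cannot settle whether a batch is shared. With the replicate block 3, 0 and 4 genes were called in the same order, and 0 members. Mstn then had a limma adjusted p of 0.0836 in old against young wild type. Total-count scaling moved the median log2 fold change of all genes to -0.126 in old and -0.127 in P311-/- against young wild type. Depth limits Inhba, Fstl3, Inhbb and Gdf15, which had at most 85 reads in any library.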
